A study of Mus musculus with 6 samples.

Results

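A set of 10 genes that mark the macrophages of fat was followed in the white adipose tissues (WATs) of single mice. They were taken by gene symbol as 10 of the 21456 genes in the deposited table. Adgre1, Csf1r and Cd68 mark macrophages in general, Mrc1, Cd163 and Clec10a mark tissue-resident macrophages, and Trem2, Cd9, Gpnmb and Itgax mark lipid-associated macrophages. Of these, 9 were found under their current symbol, and Adgre1, which encodes the surface protein F4/80, was found under its older symbol Emr1. All 10 were expressed well above the minimum level for testing in the 6 mice, and none was lost to that filter.

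The RNA-seq covered 3 control and 3 Ntsr2 AKO mice, and each library is 1 mouse. Both groups carry 2 floxed alleles of Ntsr2, a receptor gene for the peptide neurotensin, and both were fed a chow diet. Control mice are Ntsr2 flox/flox without Cre, and Ntsr2 AKO mice are Adipoq-cre::Ntsr2 flox/flox, so that Cre is driven by the adipocyte gene Adipoq. The fat depot and the age of the mice are not given for these libraries in the sources used here. The mice are called control 3, 4 and 5 and Ntsr2 AKO 3, 4 and 5 after the numbers in their labels. Values are normalized counts, that is, the reads of a gene divided by a scaling factor for the mouse.

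Macrophages are abundant immune cells of white fat, where they clear dead cells and debris. Resident macrophages lie along vessels and between adipocytes and carry scavenger and lectin receptors, among them the mannose receptor encoded by Mrc1. Lipid-associated macrophages gather around dying adipocytes, take up their lipid and rely on the receptor Trem2, and they are known to become more frequent in obesity. Csf1r, the receptor for Csf1 and Il34, keeps macrophages of either kind alive. In RNA from whole tissue, fewer macrophages and less RNA of a gene per macrophage cannot be told apart.

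Promoter sequences were available from RefSeq for 7 of the 10 genes (Mrc1, Cd163, Trem2, Cd9, Gpnmb, Itgax and Cd68), each from 250 bases before to 50 bases after the start of transcription, on GRCm38.p6. They were searched on both strands for 3 short motifs without overlap between them. The first was GAGGAA, the core of the PU-box that the macrophage factor PU.1 binds, the second was TGAGTCA, an AP-1 site, and the third was CACGTG, an E-box of the kind bound by regulators of lysosomal genes. The PU-box letters stood in 3 of the 7 promoters (Mrc1, Cd68 and Trem2), beside 28.3% of all 32851 promoters of the same length. The AP-1 letters stood in 3 of the 7 (Gpnmb, Itgax and Cd68), beside 5.20% of all promoters. The E-box letters stood in 0 of the 7, beside 7.15%. These matches describe letters, and no binding was measured in these mice. The following stretches are printed since they come from the genes whose levels differed most between mice among the 7 (Trem2, Itgax and Cd68) and from the resident marker with the most reads (Mrc1). They are written 5′ to 3′ along the strand of the gene, with capitals at 1 match in each stretch. The capitals are PU-box letters, here as their reverse complement TTCCTC, for Trem2 and Mrc1 and AP-1 letters for Cd68 and Itgax. Mrc1 has further PU-box matches 167 bases before the start, in lower case in its printed stretch, and 35 bases before the start. Cd68 has a further AP-1 match 149 bases before the start, which is not printed.
Trem2, chr17:48346314-48346400, plus strand, match 40 bases before the start: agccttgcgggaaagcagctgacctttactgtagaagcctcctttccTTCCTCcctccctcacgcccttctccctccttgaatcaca
Mrc1, chr2:14229187-14229286, plus strand, match 180 bases before the start: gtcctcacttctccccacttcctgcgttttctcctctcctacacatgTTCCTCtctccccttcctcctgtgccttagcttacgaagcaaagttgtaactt
Cd68, chr11:69666171-69666241, minus strand, match 24 bases before the start: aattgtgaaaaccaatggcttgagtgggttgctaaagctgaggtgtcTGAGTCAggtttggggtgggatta
Itgax, chr7:128129447-128129546, plus strand, match 56 bases before the start: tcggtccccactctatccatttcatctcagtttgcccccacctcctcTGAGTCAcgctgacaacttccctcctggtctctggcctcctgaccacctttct

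The libraries held 54085088 to 66098226 recovered reads. The targeted gene Ntsr2 had 64.0 to 152.5 normalized counts in the control group, against 0 to 8.29 in the Ntsr2 AKO group, without overlap. Adipoq ranged from 163803 to 220865, which marks the tissue as fat. A list of 10 skeletal muscle genes took 4.46% of the reads in control 5, 0.341% in Ntsr2 AKO 5 and 0.159% in Ntsr2 AKO 4, and at most 0.00255% in the other 3 mice. Markers of B cells and T cells were highest in control 3.

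The genes of macrophages in general differed more between mice of 1 genotype than between the means of the genotypes. Adgre1 lies on chromosome 17 (57358691 to 57483527, plus strand, on GRCm38 with GENCODE M21 as for all gene positions here). It had 935, 3173 and 1601 normalized counts in control 3, 4 and 5, and 1288, 978 and 2025 in Ntsr2 AKO 3, 4 and 5. The highest value, in control 4, was 3.39 times the lowest, in control 3, so that the control mice alone spanned the whole range and held all Ntsr2 AKO mice within it. The control mean was 1903 ± 1149 and the Ntsr2 AKO mean 1431 ± 538 (SD, n = 3 each), with a log2 fold change (Ntsr2 AKO minus control, on the scale of log2(normalized count + 1)) of -0.30 and a 95% interval of -1.41 to 0.81. Fold changes, intervals and p values are from limma, a linear model fitted over all genes tested.

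Csf1r had 3593, 6356 and 4206 normalized counts in the control mice, against 4633, 3849 and 4953 in the Ntsr2 AKO mice. Its control mice again enclosed the Ntsr2 AKO mice, and its highest value was 1.77 times its lowest. The log2 fold change of Csf1r was -0.04, with an interval of -0.58 to 0.50. In the annotation, 15.1% of the exon bases of Csf1r overlap Hmgxb3 on the opposite strand, and the counting is not stated to use strand. Cd68, which encodes a lysosomal glycoprotein of phagocytes and lies on the minus strand of chromosome 11 (69664213 to 69666153), had 1046, 2997 and 1823 in the control mice, against 1446, 747 and 1368 in the Ntsr2 AKO mice. Here Ntsr2 AKO 4 was lowest and control 4 was highest, a 4.01-fold span. The log2 fold change of Cd68 was -0.65 with an interval of -1.65 to 0.35 (limma adjusted p = 0.695).

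Among the resident markers, Mrc1 (chromosome 2, plus strand, 14229392 to 14332057) had the most reads, with 4659, 10628 and 8813 normalized counts in the control mice, against 6924, 5294 and 9150.0 in the Ntsr2 AKO mice. All 6 mice stood in the order they had for Adgre1, from control 4 down to control 3, and the groups overlapped. Means of Mrc1 were 8033 ± 3060.2 and 7123 ± 1935 (SD, n = 3 each), with a log2 fold change of -0.13 and an interval of -0.93 to 0.68. After quantile normalization the fold changes of Mrc1 and Csf1r had the other sign, at 0.0045 and 0.067.

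Cd163, the scavenger receptor for hemoglobin bound to haptoglobin, lies on chromosome 6 (124304656 to 124330527, plus strand). It had 2143, 2869 and 3729 in the control mice, against 2761, 3465 and 3993 in the Ntsr2 AKO mice. It spanned 1.86-fold over the 6 mice, and Ntsr2 AKO 5 and not control 4 was highest. The log2 fold change of Cd163 was 0.25, with an interval of -0.31 to 0.80. Clec10a, a lectin receptor for galactose-type sugars on the plus strand of chromosome 11 (70156197 to 70170834), had 2449.9, 6786 and 4832 in the control mice, against 5503, 4249.7 and 10758 in the Ntsr2 AKO mice. Ntsr2 AKO 5 stood above the other 5 mice and control 3 below them, a 4.39-fold span. The log2 fold change of Clec10a was 0.55, with an interval of -0.55 to 1.64 (limma adjusted p = 0.762). Of the 50-base stretches in Clec10a transcripts, 9.02% also occur in transcripts of other genes, 8.49% in its neighbour in the family Mgl2, so its reads could have been shared between them in the counting.

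**Figure D1:**
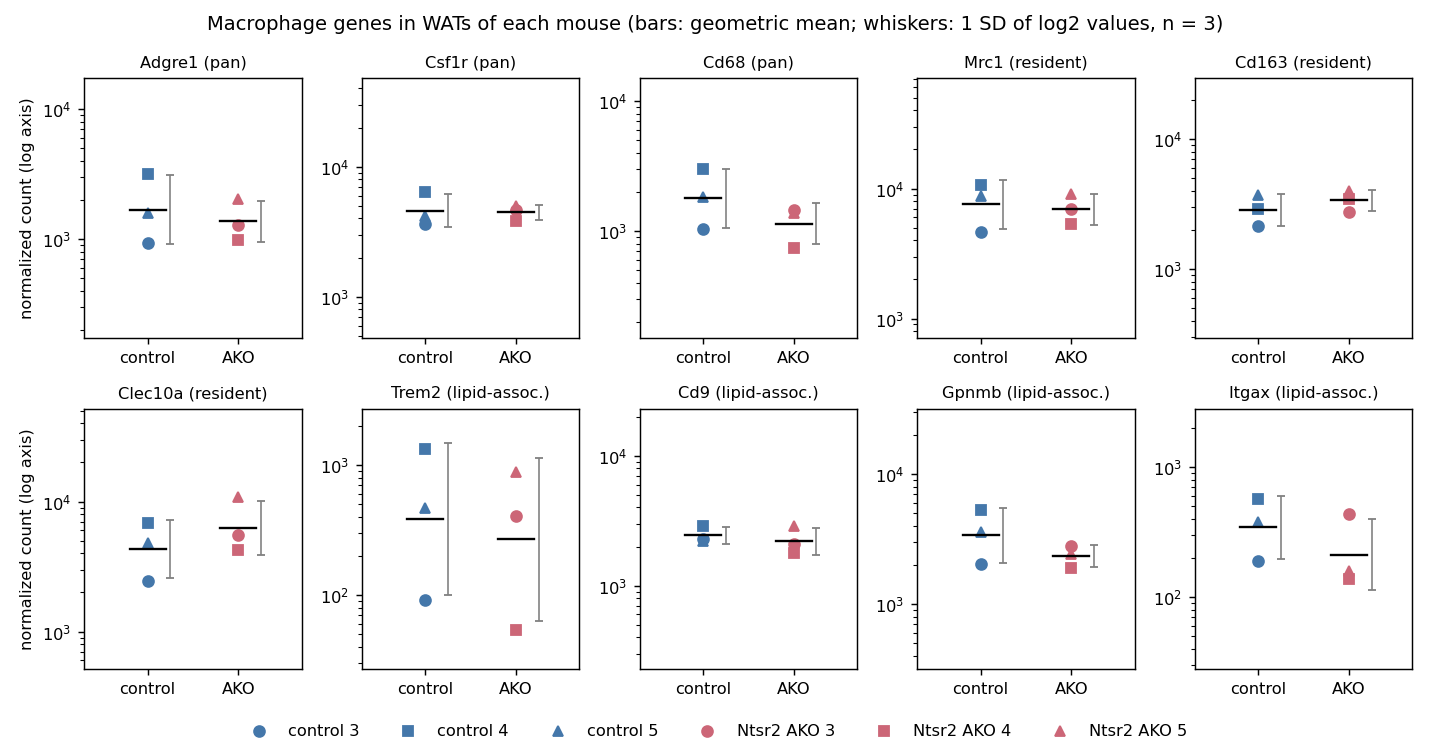
Normalized counts (log axis) of the 10 genes in each mouse, with 1 panel a gene and the same fold range in each panel. Bars are geometric means, whiskers are 1 SD of the log2 values (n = 3), and in every panel the 2 groups overlap, with Trem2 reaching from 53.9 in Ntsr2 AKO 4 to 1339 in control 4.

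Trem2 varied more than any other of the 10 genes. The gene lies on the plus strand of chromosome 17 (48346401 to 48354147). It had 92.0, 1339 and 465 normalized counts in control 3, 4 and 5, and 406, 53.9 and 880.5 in Ntsr2 AKO 3, 4 and 5. The highest mouse had 24.8 times the lowest, and mice of 1 genotype differed 14.6-fold in the control group and 16.3-fold in the Ntsr2 AKO group. Control 3 and Ntsr2 AKO 4 stood low and apart from the other 4 mice. The lowest value rests on 52 recovered reads, so counting error is small beside these differences. Means were 632 ± 640.1 (SD, n = 3) and 447 ± 415 (SD, n = 3), and the log2 fold change was -0.52 with a standard error of 1.26. The 95% interval ran from -3.52 to 2.48, that is, from 0.0869 to 5.59 times the control level, so that a large decrease and a large increase of Trem2 both lie within it. Single mice set its direction, as the log2 fold change was 0.37 without control 4, 0.63 without Ntsr2 AKO 4 and -1.55 without control 3.

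Gpnmb, a glycoprotein of lysosomes and the cell surface encoded on chromosome 6 (49036546 to 49070929, plus strand), had 2027, 5281 and 3589 normalized counts in the control mice, against 2784, 1879 and 2440.1 in the Ntsr2 AKO mice. Control 4 and control 5 were above all Ntsr2 AKO mice and control 3 fell among them. The log2 fold change of Gpnmb was -0.53 with an interval of -1.35 to 0.29 (limma adjusted p = 0.695). Itgax, the integrin chain CD11c that dendritic cells also carry, lies on chromosome 7 (128129547 to 128150657, plus strand). It had 191, 569 and 379 in the control mice, against 437, 137 and 159.9 in the Ntsr2 AKO mice. Ntsr2 AKO 3 lay among the control mice and the other 2 Ntsr2 AKO mice lay below them. Its log2 fold change was -0.70 with an interval of -2.03 to 0.63 (limma adjusted p = 0.752), and 8.02% of its 50-base stretches also occur in the related gene Itgad.

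Cd9, a tetraspanin that many cell types of fat express, was the steadiest of the 10 genes. It lies on the minus strand of chromosome 6 (125460266 to 125494791). The gene had 2289, 2889.7 and 2203 normalized counts in the control mice, against 2079, 1792 and 2853 in the Ntsr2 AKO mice, a 1.61-fold span. Its log2 fold change was -0.15, with an interval of -0.63 to 0.33. Of its exon bases, 10.7% overlap a gene on the opposite strand (Gm26728).

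In the comparison of genotypes, 0 of the 10 genes had an adjusted p under 0.05 in limma, beside 0.00619% of all 16157 genes tested. At an unadjusted p under 0.05 there were also 0 of the 10, beside 8.35% of all genes tested. edgeR's quasi-likelihood test and DESeq2, run on the recovered reads, likewise gave 0 of the 10 at an unadjusted p under 0.05, beside 8.19% and 10.4% of all genes, and 0 of the 10 at an adjusted p under 0.05, beside 0.00% and 1.36%. The groups were free of overlap in 0 of the 10 genes, beside 15.0% of all genes tested. By direction, 8 genes had a log2 fold change below 0 (all 3 general markers, Mrc1 and all 4 lipid-associated markers) and Cd163 and Clec10a had one above 0, with Csf1r and Mrc1 turning above 0 after quantile normalization, while 51.0% of all genes tested were below 0. The intervals were narrowest for Cd9, Csf1r and Cd163. For these 3 genes and Mrc1 the interval stayed within 1 log2 unit of 0, and for the other 6 it did not. Without control 4, Adgre1 (0.16), Csf1r (0.20), Mrc1 (0.12) and Trem2 (0.37) also turned above 0, and without Ntsr2 AKO 4 so did Csf1r (0.065), Mrc1 (0.07) and Trem2 (0.63). Without control 3, Cd68 (log2 fold change -1.04) and Gpnmb (-0.90) had an unadjusted p under 0.05 in limma, beside 1361 of all 16157 genes tested. Without Ntsr2 AKO 3 so did Itgax (-1.22), beside 1696 of all 16157 genes. In either case 0 of the 10 had an adjusted p under 0.05.

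**Figure D2:**
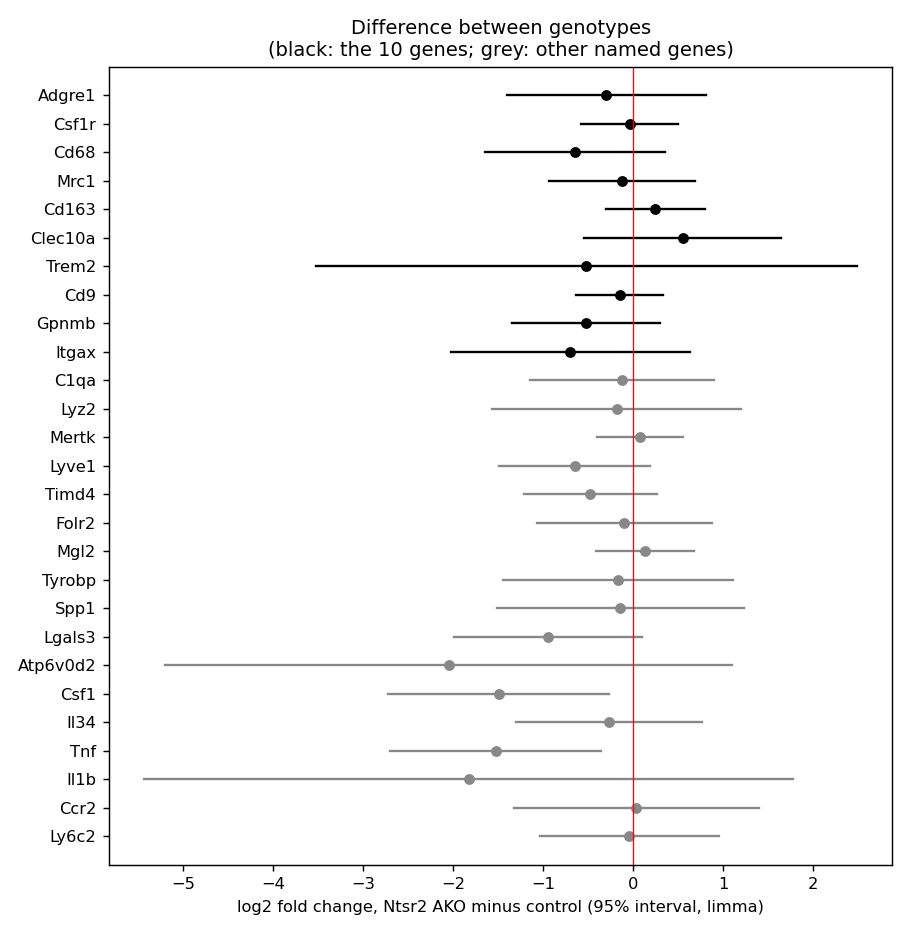
Log2 fold change, Ntsr2 AKO minus control, with the 95% interval from limma for the 10 genes (black) and for 17 other genes of macrophages, monocytes, ligands and cytokines (grey). The interval of each of the 10 genes includes 0, and it is widest for Trem2 (-3.52 to 2.48).

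The mice stood in a similar order for most of the 10 genes. Control 4 was the highest of the 6 mice in 8 of the 10 genes, and Ntsr2 AKO 5 was highest in the other 2, Cd163 and Clec10a. Over all genes tested, 15.3% were highest in control 4. The lowest mouse was control 3 in 5 of the 10 genes and Ntsr2 AKO 4 in 5, while 35.0% of all genes tested were lowest in either of these mice. All 3 resident markers were lowest in control 3, and all 4 lipid-associated markers were lowest in Ntsr2 AKO 4. The genes were chosen as markers of the same cells, so these counts are not independent of each other.

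The subsets were then compared within each mouse, as the mean of log2(normalized count + 1) over the genes of a subset. The resident mean was 11.50, 12.53 and 12.40 in control 3, 4 and 5, and 12.21, 12.06 and 12.84 in Ntsr2 AKO 3, 4 and 5. It spanned 2.52-fold over the mice. The lipid-associated mean was 9.07, 10.85 and 10.09 in the control mice, against 9.98, 8.64 and 9.96 in the Ntsr2 AKO mice, a 4.63-fold span. The general macrophage mean spanned 2.78-fold, from 10.46 in Ntsr2 AKO 4 to 11.94 in control 4. Group means (Ntsr2 AKO minus control) differed by 0.22 for the resident, -0.48 for the lipid-associated and -0.33 for the general markers. Single mice moved these differences, to -0.10 for the resident markers without control 3, to -0.03 for the lipid-associated ones without Ntsr2 AKO 4 and to 0.03 for the general ones without control 4. Relative to the mean over all mice, Ntsr2 AKO 4 stood at -1.12 for the lipid-associated genes and at -0.20 for the resident genes.

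The lipid-associated minus the resident mean sets the RNA of the lipid-associated markers against that of the resident ones. It does not tell the number of cells from the RNA per cell. Only differences between mice can be read in this measure, since the genes differ in length. It was -2.44, -1.68 and -2.32 in the control mice (mean -2.14 ± 0.41, SD, n = 3) and -2.23, -3.42 and -2.88 in the Ntsr2 AKO mice (mean -2.84 ± 0.60, SD, n = 3). Group means differed by -0.70, and the groups overlapped, since Ntsr2 AKO 3 lay above control 3 and control 5. Mice of 1 genotype differed by up to 0.76 in the control group and 1.19 in the Ntsr2 AKO group, each more than the group means did. The difference was -0.41 without Ntsr2 AKO 4 and -0.47 without control 4. Without Cd9, which other cells also express, the difference between group means was -0.81. Relative to the general markers, the resident mean was 0.93, 0.59 and 1.23 in the control mice, against 1.20, 1.60 and 1.61 in the Ntsr2 AKO mice. These groups overlapped only through control 5 and Ntsr2 AKO 3, and their means differed by 0.55. The resident markers were not alike, with log2 fold changes of 0.55 for Clec10a, 0.25 for Cd163 and -0.13 for Mrc1. Of 15 other resident markers, 7 were below and 8 above 0, with a median of 0.02. The lipid-associated mean minus that of the general markers differed between group means by -0.15, with overlap. No test was made of these means, as their genes were chosen with earlier results of these data known.

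**Figure D3:**
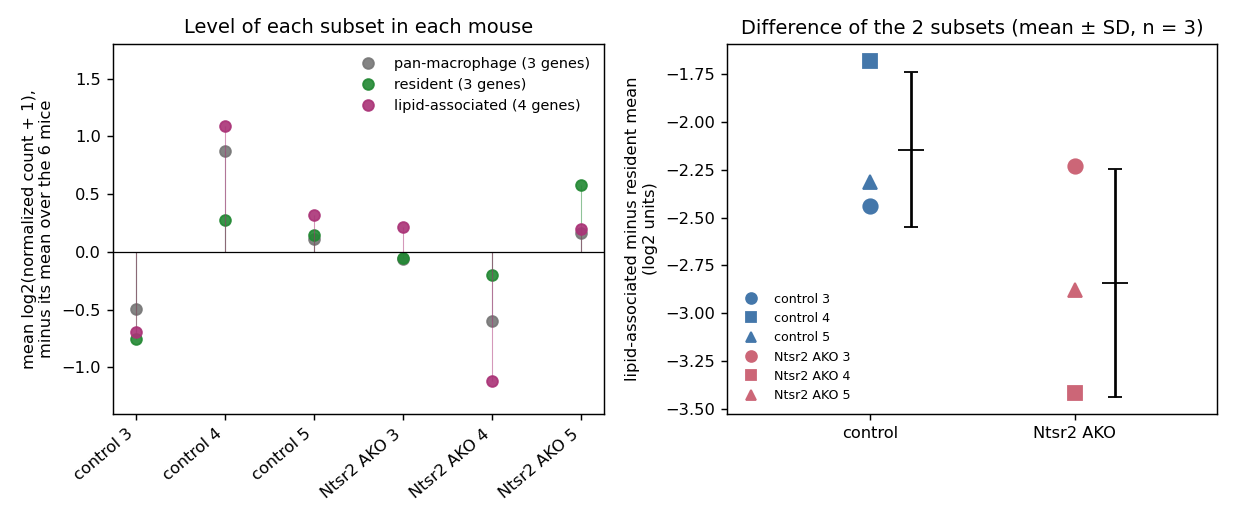
Left, mean log2 level of each subset in each mouse, as the difference from its own mean over the 6 mice. Right, lipid-associated minus resident mean in each mouse with group mean ± SD (n = 3), where Ntsr2 AKO 4 is lowest (-3.42), control 4 is highest (-1.68) and the groups overlap.

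Counts of single genes were also divided by the Adgre1 count of the same mouse, which spanned 1.64-fold for Mrc1, 1.68-fold for Cd68, 1.86-fold for Gpnmb and 7.89-fold for Trem2. Trem2 amounted to 9.84%, 42.2% and 29.1% of the Adgre1 count in the control mice, against 31.5%, 5.51% and 43.5% in the Ntsr2 AKO mice. Control 4 and Ntsr2 AKO 5, of different genotype, thus had nearly the same ratio, and Ntsr2 AKO 4 had the lowest. Against Mrc1 the Trem2 ratio spanned 12.4-fold, from 1.02% in Ntsr2 AKO 4 to 12.6% in control 4, so Trem2 differed between mice by far more than the macrophage genes it was divided by. Clec10a amounted to 262%, 214% and 302% of Adgre1 in the control mice, against 427%, 434% and 531% in the Ntsr2 AKO mice. This ratio did not overlap between groups, and it is 1 of 10 ratios examined, singled out after its values were seen and not tested. The sequence that Clec10a shares with Mgl2 bears on it as well.

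The spread between mice of 1 genotype was set beside that of all genes tested. The within-group SD of Trem2 was 2.00 on the log2 scale, and 96.3% of all genes tested had a smaller one. The SD was 0.85 for Itgax, 0.73 for Adgre1, 0.72 for Clec10a and 0.65 for Cd68, larger than in 86.8%, 83.2%, 82.9% and 80.2% of the genes. It was smallest for Cd9 at 0.28, close to the middle of all genes (47.8% had a smaller one). Many of the genes with a smaller SD have more reads than Itgax and Trem2, and the comparison was not adjusted for level.

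**Figure D4:**
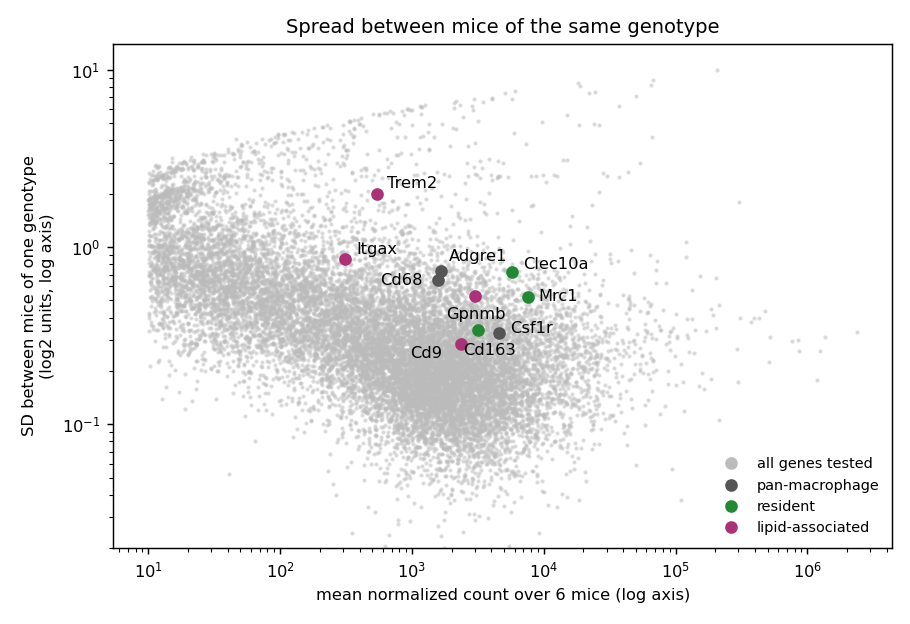
SD between mice of the same genotype (log2 units, log axis) against mean normalized count over the 6 mice (log axis) for all genes tested (grey) and the 10 macrophage genes (coloured by subset). Trem2, at an SD of 2.00, lies above most genes of its level, and Cd9, at 0.28, lies within the bulk.

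To compare the levels of different genes, counts were divided by the exon length in kilobases, with all annotated exons of all transcripts of a gene merged. This length can exceed that of the transcript that the cells make, and the level is then understated. The median over the 6 mice was 1782 normalized counts per kilobase for Clec10a, 1235 for Mrc1, 1119 for Cd68, 1099 for Cd9, 765 for Csf1r, 580 for Cd163, 446 for Adgre1, 401 for Gpnmb, 88.0 for Trem2 and 59.3 for Itgax. Neighbours in this order had overlapping ranges over the mice, with 1 exception. On these lengths, all values of Gpnmb (288 to 811 per kilobase) were above all values of Trem2 (10.9 to 271). Trem2 and Itgax (28.5 to 119) did not differ in level beyond their spread on these lengths. Both statements on Trem2 rest on its merged length of 4.946 kilobases, and lengths of single transcripts were not tried.

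Further genes of the same cells were taken from lists of markers. Of 16 other genes of macrophages in general, 13 had a log2 fold change below 0 and 3 above, with a median of -0.34, beside -0.0071 over all genes tested, and 0 had an unadjusted p under 0.05 in limma, edgeR or DESeq2. Of these 16, 13 were highest in control 4. C1qa, a chain of complement C1q that tissue macrophages make, had 4770.1, 12836 and 8616 normalized counts in the control mice, against 7229.5, 4876 and 11488 in the Ntsr2 AKO mice. Control 4 and Ntsr2 AKO 5 were its highest mice and control 3 and Ntsr2 AKO 4 its lowest, and its log2 fold change was -0.13. Lyz2, the lysozyme of phagocytes, spanned 4.01-fold with a log2 fold change of -0.18. Mertk, a receptor for the uptake of dead cells, spanned only 1.61-fold, with a log2 fold change of 0.08.

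Of 15 other resident markers, 7 were below and 8 above 0, with a median of 0.02, and 0 had an unadjusted p under 0.05 in limma, edgeR or DESeq2. After quantile normalization the split was 5 below and 10 above 0. Of the 15 genes, 2 were highest in control 4. Lyve1, a hyaluronan receptor of perivascular macrophages and lymphatic endothelium, had 903, 1120.4 and 1534 in the control mice, against 1149, 465 and 747 in the Ntsr2 AKO mice. Its lowest 2 mice were Ntsr2 AKO mice, and its log2 fold change was -0.65 with an interval of -1.49 to 0.19 (limma adjusted p = 0.646). Timd4, a phosphatidylserine receptor of long-lived macrophages, had a log2 fold change of -0.48, Folr2, a folate receptor, one of -0.10, and Mgl2 one of 0.13. Of these 4 genes, none had an unadjusted p under 0.05.

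Of 18 other lipid-associated markers, 15 were below and 3 above 0, with a median of -0.20. At an unadjusted p under 0.05 there were 0 in limma and edgeR and 1 in DESeq2, and 0 at an adjusted p. Of the 18 genes, 16 were highest in control 4 and 17 were lowest in control 3 or Ntsr2 AKO 4. Adipocytes and other cells of fat also make several of them, among them Fabp5, Plin2, Apoe and the lysosomal proteases. Tyrobp, the adaptor through which Trem2 signals, had 740.0, 3030.0 and 1383 in the control mice, against 1112, 935 and 2106 in the Ntsr2 AKO mice. Its mice stood in the order of Adgre1 and its span was 4.09-fold, smaller than that of Trem2. Atp6v0d2, a subunit of the lysosomal proton pump, had 133, 885 and 355 in the control mice, against 269, 9.33 and 212 in the Ntsr2 AKO mice. It differed 94.9-fold over the mice, with Ntsr2 AKO 4 far below the rest at only 9 recovered reads, so this span is imprecise. Its log2 fold change of -2.05 had an interval of -5.20 to 1.09. Lgals3, the lectin galectin-3, had a log2 fold change of -0.95 with an interval of -1.99 to 0.10 (limma adjusted p = 0.616), and Spp1, osteopontin, one of -0.14 with a 5.03-fold span.

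A list of 11 genes held Csf1r and Trem2 with their ligands and signalling partners, and also Csf2, Csf2ra and Csf2rb, the ligand and receptor chains of GM-CSF, another growth factor of myeloid cells. Of these, 10 were tested, and Csf1r, Trem2, Tyrobp and Apoe are also counted above. In these, 9 were below and 1 above 0, and 2 had an unadjusted p under 0.05, both lower in Ntsr2 AKO mice, beside 8.35% of all genes tested. At an adjusted p under 0.05 there were 0 in limma and edgeR, and both genes in DESeq2, which called 1.36% of all genes. Csf1, the growth factor of macrophages, had 8047, 2574 and 10584 normalized counts in the control mice, against 2874, 1716 and 1985 in the Ntsr2 AKO mice. Control 3 and control 5 stood high, while control 4, the highest mouse in 8 of the 10 macrophage genes, lay among the Ntsr2 AKO mice. Its log2 fold change was -1.49 with a standard error of 0.52 (limma adjusted p = 0.562). Control 4 was thus the lowest control mouse for Csf1 and the highest for its receptor Csf1r.

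The second gene was Csf2rb, a chain of receptors for GM-CSF and other cytokines, with 3261, 3871 and 3030.4 in the control mice, against 2321, 1647 and 1586 in the Ntsr2 AKO mice. It is named after its values were seen. Its groups did not overlap, as in 15.0% of all genes tested, with a log2 fold change of -0.89 and a standard error of 0.18 (limma adjusted p = 0.499). Il34, the other ligand of Csf1r, had a log2 fold change of -0.27 with an interval of -1.31 to 0.76.

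Of 10 genes of inflammatory macrophages, 9 were tested, 5 below and 4 above 0, and 1 had an unadjusted p under 0.05, a share near the 8.35% of all genes tested. This was Tnf, the cytokine, with 69.9, 58.8 and 61.4 in the control mice, against 14.5, 16.6 and 39.5 in the Ntsr2 AKO mice. The groups did not overlap, as in 15.0% of all genes tested, with a log2 fold change of -1.53 and a standard error of 0.49 (limma adjusted p = 0.546). Il1b had 0 normalized counts in Ntsr2 AKO 4 and 27.9 to 76.7 in the other mice, with a log2 fold change of -1.83 and an interval of -5.43 to 1.77. Of 8 markers of monocytes, from which many macrophages arise, 5 were below and 3 above 0, with a median of -0.06. An unadjusted p under 0.05 in limma was found for 1 of them, lower in Ntsr2 AKO mice, beside 8.35% of all genes tested. At an adjusted p there were 0. The groups did not overlap in 1 of the 8, beside 15.0% of all genes tested. Ccr2 and Ly6c2 had log2 fold changes of 0.03 and -0.05 with overlapping groups.

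Markers of other cells moved between the mice as well. The summed normalized counts of 7 B cell genes were 55.6 to 788 in the control mice and 154 to 193 in the Ntsr2 AKO mice, highest in control 3, where Cd79a had 231 and at most 37.3 in the other mice. The sums of 7 T cell genes were 359 to 1583 and 296 to 616, again highest in control 3, where Cd3e had 183. Control 3, low in macrophage genes, was thus the mouse with the most lymphocyte RNA. The sums of 10 muscle genes were 391 to 2825531 and 1438 to 194224, led by Acta1 and Ckm in control 5, Ntsr2 AKO 4 and Ntsr2 AKO 5. These 3 mice include Ntsr2 AKO 4, low in macrophage genes, and Ntsr2 AKO 5, high in them. The sums of 7 neutrophil genes were 433 to 947 and 132 to 545. All 6 neutrophil genes tested had a log2 fold change below 0 (median -1.63), as had all 7 T cell genes (median -0.80). In each list 1 gene had an unadjusted p under 0.05 in limma, beside 8.35% of all genes tested, and 0 an adjusted one. The neutrophil number depended on the processing. After quantile normalization it was 4 in limma, beside 1245 of all 16157 genes tested, and it was 0 in edgeR and 1 in DESeq2. None of these had an adjusted p under 0.05. The groups were without overlap in 2 neutrophil genes and 1 T cell gene, beside 15.0% of all genes tested. The sums of 10 dendritic cell genes were 3569 to 3850.2 and 3183 to 3426. These sums did not overlap between the groups, as in 15.0% of all single genes tested. Of the 10 single genes, 5 were below and 5 above 0, with a median log2 fold change of 0.07. The groups overlapped in each of the 10, which differed 1.47-fold to 30.9-fold between mice. Dendritic cells also carry Itgax, and their part in its level was not tested. The 10 adipocyte genes summed to 2759715 to 4005425 and 3255057 to 3547519. With the muscle score of each mouse as a covariate, 0 of the 10 macrophage genes had an unadjusted p under 0.05 in limma, beside 1363 of all 16157 genes tested. The part of lymphocytes in the levels of the macrophage genes was not tested.

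**Figure D5:**
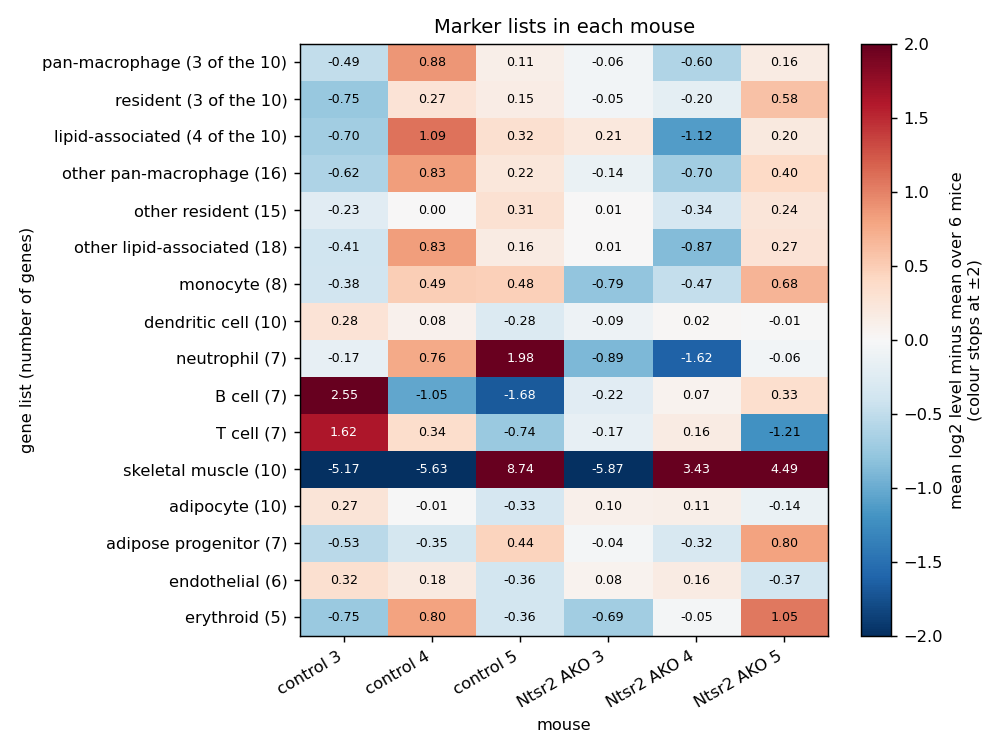
Mean log2 level of each gene list in each mouse, minus its mean over the 6 mice (colour, stopping at ±2, and printed value). Control 4 is above its mean over the mice in the general and lipid-associated macrophage lists, control 3 and Ntsr2 AKO 4 are below theirs, and B cell (2.55) and T cell (1.62) genes are highest in control 3.

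Genes were also ranked by the root mean square difference of their centred log2 levels from those of Adgre1 over the 6 mice, in which 0 is an identical pattern. This measure counts the size of the differences between mice as well as their order. The nearest 5 of all genes tested were Pycard (0.07), Dhx58 (0.10), C1qb (0.11), Fcer1g (0.11) and Mx1 (0.12), while the median over all genes was 0.69. Pycard, an adaptor of the inflammasome, had 182, 709 and 321 normalized counts in the control mice, against 253, 189 and 406 in the Ntsr2 AKO mice. All 6 mice kept the order of Adgre1. Of the other 9 macrophage genes, the nearest to Adgre1 were Mrc1 (0.25), Cd68 (0.29) and Gpnmb (0.31), and Trem2 (1.12) was the farthest. Trem2 also spread more about its own mean (root mean square 1.66) than Adgre1 did (0.61), which by itself sets them apart here. In order, the mice stood for Trem2 as for Adgre1, except that control 3 and Ntsr2 AKO 4 changed places. The distance of Trem2 is thus no sign that it followed Adgre1 least.

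For Trem2 the nearest genes were F7 (0.40), Serpina3k (0.43), B430306N03Rik (0.55), Gpr176 (0.57) and Oas3 (0.57), while the median over all genes was 1.69. F7, which encodes coagulation factor VII, had 17.5, 193 and 68.1 normalized counts in the control mice, against 61.9, 4.15 and 80.0 in the Ntsr2 AKO mice. Serpina3k, a serine protease inhibitor, had 139, 1184 and 488 in the control mice, against 699, 113 and 963 in the Ntsr2 AKO mice. Like Trem2, both had their highest value in control 4 and their lowest 2 in control 3 and Ntsr2 AKO 4. With 6 mice and 16157 genes, close patterns also arise by chance, and these likenesses are descriptions over the same libraries.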

How the data were processed

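Poly-A RNA from WATs of 6 mice was sequenced with a kit not stated to keep strand. Trimming by the authors was with Trimmomatic, alignment with Hisat2 and quantification of genes with StringTie (HISAT2, StringTie and mm10 are also named in the submitters' processing notes). Tool versions and the annotation are not given in the sources used here. The deposited table holds normalized counts (unit signal), which the values show to be whole reads that the authors divided by 1 factor for each mouse. Division by the step of the low values returned whole reads for 100% of values (within 1e-06), with 54085088 to 66098226 reads a mouse. For the 10 genes the number of mice and not depth thus limits the precision. Some other named genes had few reads in single mice, down to 0 for Il1b, 9 for Atp6v0d2 and 14 for Tnf. For these, counting error matters too. All 6 columns were used, and mice of a group differed by more than sampling noise.

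log2(normalized count + 1) was tested with limma 3.58.1 in R 4.3.3 (mean-variance trend, two-sided, no covariates, 6 mice) for genes averaging 10 or more over the mice, 16157 of 21456, with Benjamini-Hochberg adjustment at 0.05. A log-scale test came first because the values are normalized. On the recovered reads, DESeq2 1.42.0 and edgeR 4.0.16 (TMM scaling, quasi-likelihood) served as alternatives. Other alternatives were pseudocounts of 0.1 and 5, a filter at 50 or none, quantile normalization, no trend, TMM scaling or medians for the subset means, the replicate number as a block, and the omission of each mouse. A muscle score as covariate was added after the data were seen. The 3 fits were tested on simulated counts with known changes. Subset means, ratios and likenesses carry no test.

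The 10 genes, the gene lists and the tests were chosen with earlier results of these data known. Named genes are the 10, Ntsr2, listed markers set without regard to fold change, and the 5 genes nearest in pattern to Adgre1 and to Trem2. Csf2rb was named after its values were seen. Exon lengths and overlaps are from GENCODE M21 on GRCm38 and promoters from RefSeq on GRCm38.p6. Protein sequences and the paper's other assays were not analysed here.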

Additional observations from a re-analysis of the deposited data

How the results depend on the processing

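Of the 10 genes, 0 had an adjusted p under 0.05 under any alternative. The number at an unadjusted p under 0.05 was 0 under all alternatives but the omission of single mice, where it ranged from 0 to 2. It was 2 without control 3 (Cd68 and Gpnmb), beside 1361 of all 16157 genes tested. It was 1 without Ntsr2 AKO 3 (Itgax), beside 1696 of all 16157 genes. The signs of Cd68, Cd163, Clec10a, Cd9, Gpnmb and Itgax held under every alternative. With single mice left out, the log2 fold change ranged from -0.72 to 0.16 for Adgre1, from -0.22 to 0.20 for Csf1r, from -0.48 to 0.12 for Mrc1 and from -1.55 to 0.63 for Trem2. After quantile normalization it was 0.067 for Csf1r and 0.0045 for Mrc1. The cause was not tested.

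Over all genes, limma gave 1 gene at an adjusted p under 0.05. DESeq2 gave 220, and edgeR, limma without the trend, without the filter, with the muscle score and with any 1 mouse left out gave 0 (0 to 0). At an unadjusted p under 0.05 there were 1349 genes, and 647 (without Ntsr2 AKO 4) to 1696 (without Ntsr2 AKO 3) with 1 mouse left out. The replicate numbers 3, 4 and 5 occur in both groups. Across genes, the residuals of mice with the same number (level minus group mean) correlated at -0.24 to 0.45 over the 3 pairs. Of the 6 mice, 4 correlated best with their own number. The labels do not state whether the numbers stand for pairs, and the main fit did not take them as pairs. With the replicate block, 0 genes had an adjusted p under 0.05 and 1303 an unadjusted one, with 0 of the 10 among them.

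Differences between genotypes in the subset means moved by less than the spread between mice under every alternative. With single mice left out, that of the resident mean (0.22) reached -0.10 and that of the general mean (-0.33) reached 0.03, while that of the lipid-associated mean (-0.48) reached -0.03 and stayed below 0. That of the lipid-associated minus the resident mean (-0.70) was below 0 under every alternative and was smallest, at -0.41, without Ntsr2 AKO 4.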
